A study of Mus musculus with 19 samples.

Results

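A set of 10 genes that encode glycoproteins, proteoglycans and the cross-linking enzyme of the stromal extracellular matrix was taken by symbol from a gene count table of cells from mouse bone marrow. They were Sparc, Fn1, Fbn1, Postn, Lox, Bgn, Dcn, Lum, Tnc and Thbs1, which make up 10 of the 46095 symbols in the table, and all 10 had a line of counts. The 19 libraries came from C57BL/6 mice that were centrifuged at 15 G in sessions of 15 min over about 1 or 3 weeks (hypergravity), or from control mice listed at 0 G. From each animal group 2 kinds of cells were labelled: bone marrow mesenchymal stem cells (BMSC), the adherent stromal cells of marrow, and bone marrow-derived macrophages (BMDM), which marrow precursors form in culture under M-CSF. The BMSC groups held 3 hypergravity and 3 control libraries in the 1 week set and 2 and 2 in the 3 week set. The BMDM groups held 2 hypergravity and 3 control libraries in the 1 week set and 2 and 2 in the 3 week set. For the 1 week controls no duration is labelled, and they were matched to the 1 week animals by how their names are built. The labelled culture medium, which holds M-CSF, is one for macrophages in all libraries, BMSC included. Replicates are not stated to be separate animals or cultures, so the p-values refer to a spread between samples that may be technical.

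These genes act at different places of the matrix. Fibronectin (Fn1) is a fibrous glycoprotein that cells bind through integrins, and fibrillin-1 (Fbn1) builds the microfibrils on which elastic fibres form. Lysyl oxidase (Lox) cross-links collagen and elastin. Biglycan (Bgn), decorin (Dcn) and lumican (Lum) are small leucine-rich proteoglycans that bind collagen fibrils. SPARC, periostin (Postn), tenascin-C (Tnc) and thrombospondin-1 (Thbs1) are matricellular proteins, which modulate how cells interact with the matrix. Fibroblasts, osteoblast precursors and other marrow stromal cells are known to make all of them. Macrophages are known to make fibronectin and thrombospondin-1 as well.

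Both kinds of libraries carried macrophage transcripts, and BMSC held more transcripts of stroma and of several other marrow cells. The summed level of 10 macrophage markers, among them Lyz2, Csf1r and Cd68, ran from 25790 to 32630 CPM (counts per 1e6 counts of a library) in BMSC and from 28630 to 37770 CPM in BMDM. The summed level of 10 stromal markers, among them Col1a1, Col1a2 and Col3a1, ran from 1745 to 10520 CPM in BMSC and from 27.95 to 79.28 CPM in BMDM. In BMSC these sums were 5047 to 10520 CPM in hypergravity and 3317 to 9786 CPM in control libraries at 1 week, and 3425 to 7567 against 1745 to 2223 CPM at 3 weeks. Neutrophil markers (8 genes) summed to 998 to 2989 CPM in BMSC and 27.0 to 553 CPM in BMDM, smooth muscle and pericyte markers (7 genes) to 434 to 1728 and 4.01 to 17.2 CPM, endothelial markers (9 genes) to 52.0 to 315 and 4.67 to 41.7 CPM, and B cell markers (4 genes) to 10.7 to 31.2 and 1.82 to 6.30 CPM. In such bulk samples, fewer cells of a type and less RNA per cell cannot be told apart. The libraries held 16.32 to 33.02 M counts (1e6) each, and a count of 3 was worth 0.0909 to 0.184 CPM.

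In controls, 9 of the 10 matrix genes were called higher in BMSC than in BMDM, and Lum is not counted. Summed over the 10 genes, their level was 3059 to 11660 CPM in BMSC and 103 to 444.5 CPM in BMDM. In control libraries (BMSC minus BMDM, edgeR quasi-likelihood test), the 9 genes that passed the count filter in both cell types were all called higher at an adjusted p below 0.05, against a background of 49.8% of 15550 genes called in either direction and 27.7% called higher. The log2 difference was 6.38 ± 0.47 (SE) for Postn, 6.27 ± 0.50 for Fbn1, 5.97 ± 0.35 for Sparc and 5.62 ± 0.49 for Lox. It was 5.16 ± 0.31 for Bgn, 4.96 ± 0.36 for Tnc, 4.57 ± 0.31 for Fn1 and 4.13 ± 0.37 for Thbs1. Decorin had the smallest difference of the 9, at 1.46 ± 0.37 (adjusted p = 0.00333). Each of these calls held without any one of the 10 control libraries. Lum passed the filter only through BMSC, so its difference is not counted, and its libraries ran from 0.360 to 3.11 CPM in BMSC and from 0.0504 to 1.05 CPM in BMDM.

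In the genome, the only close neighbours among the genes are decorin and lumican (GENCODE M21, GRCm38). Dcn (chromosome 10, 97479609 to 97518143, plus strand) and Lum (97565128 to 97572703, plus strand) follow each other on chromosome 10. Fbn1 (125300594 to 125507993, minus strand) and Thbs1 (118111876 to 118127133, plus strand) are both on chromosome 2 but far apart. Sparc is on chromosome 11 (55394500 to 55423183, minus strand), Fn1 on chromosome 1 (71585520 to 71653200, minus strand), Postn on chromosome 3 (54361109 to 54391037, plus strand), Tnc on chromosome 4 (63959785 to 64047015, minus strand) and Bgn on the X chromosome (73483602 to 73495933, plus strand). Lox is on chromosome 18 (52516067 to 52529867, minus strand).

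**Figure D1:**
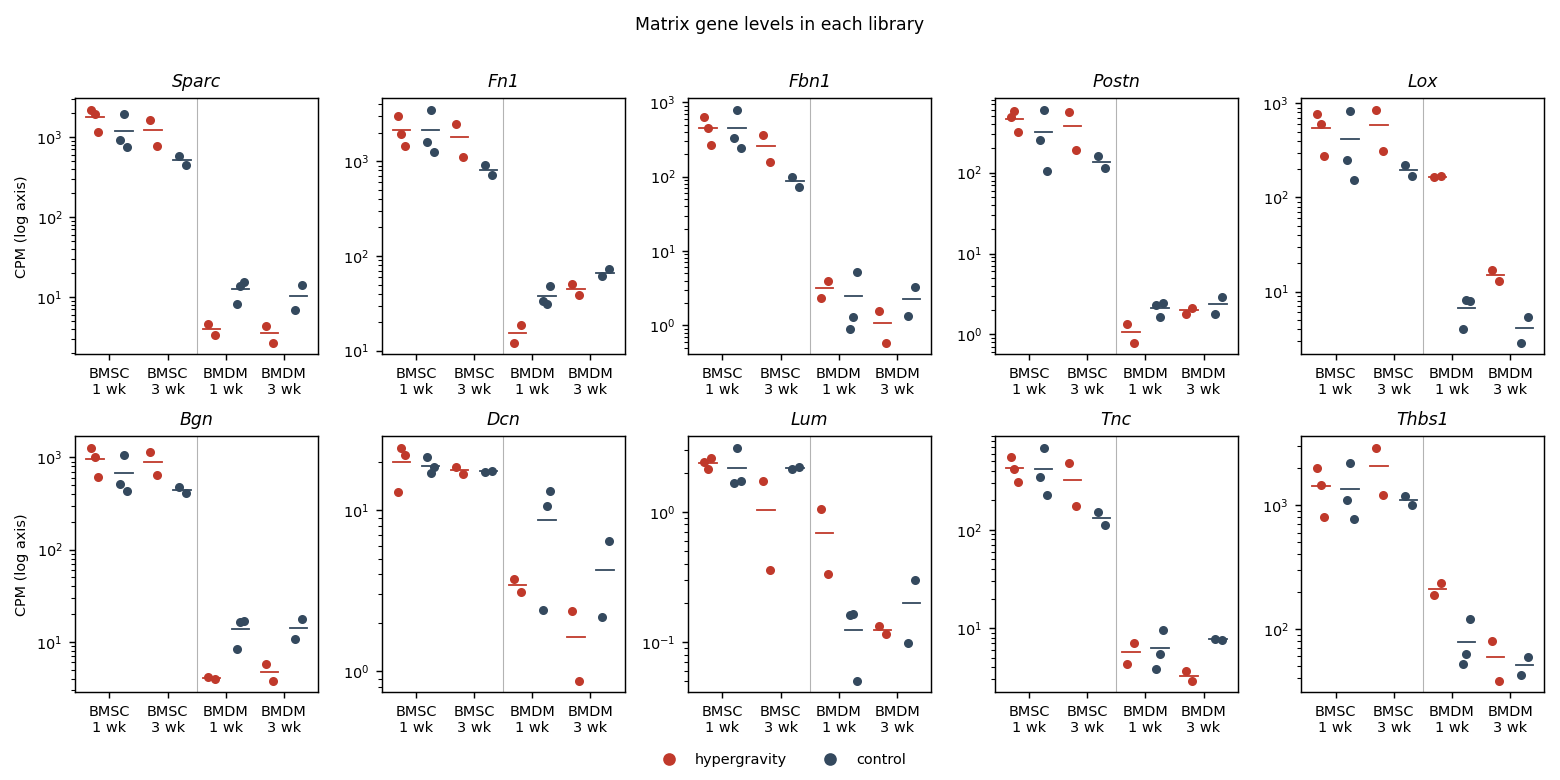
Level of each matrix gene in CPM (log axis) in every library, by cell type and set, with hypergravity libraries in red left of control libraries in dark blue and a bar at each group mean. Sparc stood at 440 to 2201 CPM in BMSC and 2.67 to 15.5 CPM in BMDM, while Lox in BMDM was near 166.5 CPM under 1 week of hypergravity and near 6.70 CPM in its controls.

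Within BMSC, the glycoproteins carried most of the signal and 2 of the 3 proteoglycans were scarce. Per kb of exonic length, so that genes can be compared, mean levels over the 10 BMSC libraries were 327 CPM per kb for Sparc, 241 for Thbs1, 154 for Fn1, 125 for Bgn and 93.1 for Lox. They were 44.5 CPM per kb for Tnc, 38.8 for Postn and 28.1 for Fbn1. Dcn reached 3.20 and Lum 0.821 CPM per kb. Between the lowest and the highest BMSC library, Fbn1 spanned 10.9-fold, Lum 8.65-fold, Tnc 6.14-fold, Postn 5.72-fold and Lox 5.61-fold. Dcn spanned 1.90-fold, the narrowest range of the 10, and its libraries lay between 12.9 and 24.5 CPM.

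At 1 week in BMSC, no matrix gene differed beyond the spread between libraries. Sparc had 2201, 1953 and 1169 CPM in hypergravity libraries, against 914, 1952 and 747 CPM in controls. One control library was thus as high as the second hypergravity library, and the groups overlapped. Fn1 had 2984, 1942 and 1440 CPM under hypergravity and 1583, 3517 and 1250 CPM in controls. The same control, replicate 2, was the highest of the 6 libraries for Fn1, Fbn1, Postn, Lox, Lum, Tnc and Thbs1. Fibrillin-1 had 634, 444 and 263 CPM under hypergravity and 331, 798 and 245 CPM in controls. Biglycan had 1279, 1011 and 611 CPM under hypergravity and 517, 1062 and 434 CPM in controls. Log2 changes were 0.54 ± 0.35 for Sparc, 0.54 ± 0.51 for Postn, 0.51 ± 0.32 for Bgn and 0.41 ± 0.56 for Lox, and lay between -0.05 and 0.11 for the other 6 genes. edgeR called none of the 10, with adjusted p from 0.438 to 0.992, against 2.72% of 15289 genes called. At an unadjusted p below 0.05 there were 0 of the 10, against 2821 of the 15289 genes. DESeq2 called 0 of them and 923 genes in all. The SEs of the 10 changes lay between 0.22 and 0.56 log2 units.

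At 3 weeks in BMSC, 8 of the 10 genes stood higher in both hypergravity libraries than in both controls, but none was called. Fbn1 had 362 and 157 CPM in hypergravity libraries, against 99.5 and 73.3 CPM in controls, a log2 change of 1.52 ± 0.53 (edgeR adjusted p = 0.899). Lox had 858 and 310 CPM under hypergravity and 222 and 168 CPM in controls (1.51 ± 0.70). Both hypergravity libraries lay above both controls for each gene, and replicate 1 of hypergravity was the highest of the 4 for all 8. Postn had 565 and 192 CPM under hypergravity and 159 and 115 CPM in controls (1.39 ± 0.64). Tnc had 476 and 175 CPM under hypergravity and 154 and 112 CPM in controls (1.22 ± 0.49). Sparc had 1644 and 780 CPM under hypergravity and 584 and 440 CPM in controls (1.17 ± 0.43). The values of the other 3 were 1.07 ± 0.47 for Fn1, 0.94 ± 0.40 for Bgn and 0.83 ± 0.50 for Thbs1. Thbs1 barely separated, with 2915 and 1200 CPM under hypergravity and 1194 and 1006 CPM in controls.

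The 2 scarce proteoglycans did not share that direction at 3 weeks. Dcn had 18.5 and 16.9 CPM under hypergravity and 17.3 and 17.5 CPM in controls (-0.04 ± 0.28). Lum had 1.71 and 0.360 CPM, or 37 and 7 counts, under hypergravity and 2.14 and 2.20 CPM, or 35 and 43 counts, in controls (-1.13 ± 0.55, adjusted p = 0.899). Lum was the only one of the 10 with both hypergravity libraries below both controls. Among all genes tested, 31.2% lay above without overlap and 14.4% below, and edgeR called 0 of 15289 genes (0%), with 800 at an unadjusted p below 0.05 and 4 called by DESeq2. Of the 10 matrix genes, 5 had an unadjusted p below 0.05, and DESeq2 called 0 of them. Without a filter on low counts edgeR called 8 of them, and 592 genes in all. The log2 change of Fbn1 was then 1.495, against 1.52 with the filter, and its adjusted p was 5.33e-17, against 0.899. These calls thus came with a smaller estimated error, not with larger changes. The stromal marker sums given above were also higher under hypergravity at 3 weeks. So were smooth muscle and pericyte markers (693 to 1723 CPM under hypergravity against 434 to 592 CPM in controls), osteoblast markers (49.5 to 96.03 against 29.1 to 37.4 CPM, with Bglap and Bglap2 at 0 in both groups), endothelial markers (58.7 to 95.3 against 52.0 to 52.6 CPM) and neutrophil markers (2694 to 2910 against 2087 to 2203 CPM). Megakaryocyte and platelet markers were higher too (62.45 to 73.65 against 47.4 to 62.06 CPM, with Gp1bb at 0 in controls). Erythroid markers were as well (12.99 to 14.25 against 11.8 to 12.8 CPM). The sum of the adipocyte markers was lower (58.6 to 62.8 against 63.2 to 65.1 CPM, with Lep at 0 in both groups). Its genes did not share 1 direction. Adipoq had a log2 change of 1.74 ± 0.51 and Pparg one of -0.18 ± 0.11 (edgeR adjusted p = 0.899 each). The part of these cells in these differences was not tested.

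**Figure D2:**
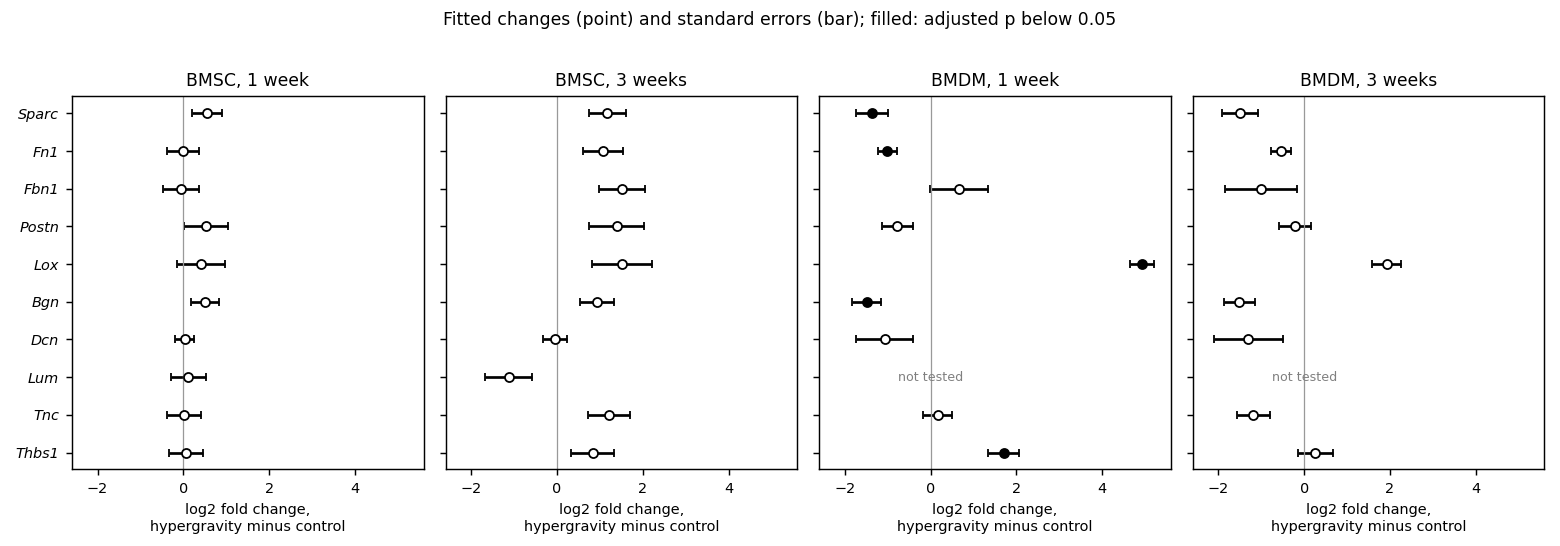
Fitted log2 fold changes, hypergravity minus control, for the matrix genes in each of the 4 comparisons, with SE bars and filled points where the edgeR adjusted p was below 0.05. Filled points appear only in BMDM at 1 week, where Lox reached 4.93, and in BMSC at 3 weeks 8 genes lie between 0.83 and 1.52 with none filled.

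The response of the matrix genes in BMSC was not shown to differ between the sets. The 3 week response minus the 1 week response was 1.56 ± 0.67 for Fbn1, 1.20 ± 0.62 for Tnc and 1.08 ± 0.60 for Fn1, and 8 of the 10 differences were above 0. None was called by edgeR (1 at an unadjusted p below 0.05, 0 in DESeq2, adjusted p from 0.518 to 0.969), and 0% of 15289 genes were called in all (1423 at an unadjusted p below 0.05, 84 in DESeq2). The controls themselves differed between the sets. Fbn1 averaged 86.4 ± 18.5 CPM (SD, n = 2) in 3 week controls and 458 ± 298 CPM (n = 3) in 1 week controls, a log2 difference of -2.32 ± 0.52 (edgeR adjusted p = 0.0291). That was 1 call among 10 genes, against 7.05% of all genes tested, and it was lost without either of the 3 week controls (adjusted p of 0.171 and 0.253). Tnc was -1.58 ± 0.46 (adjusted p = 0.0669) and Fn1 -1.29 ± 0.44 (0.101) in the same comparison.

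Across the 10 BMSC libraries, 7 of the matrix genes followed the fibrillar collagens closely, and decorin and lumican did so less. The summed level of Col1a1, Col1a2 and Col3a1, the main collagens of stroma, was 8901, 7441 and 4508 CPM in 1 week hypergravity libraries, against 3726, 8430 and 2877 CPM in their controls. It was 6467 and 2846 CPM in 3 week hypergravity libraries and 1889 and 1410 CPM in their controls. Sparc, whose protein binds collagen, tracked this sum on the log2(CPM + 1) scale with Pearson's r = 0.996 and Spearman's rho = 0.976. Its permutation p was 2e-05 for r, or 0.0001 after Benjamini-Hochberg adjustment over the 10 genes, and 5e-05 for rho, or 0.000225 adjusted (100000 permutations, two-sided). Its share stayed between 23.2% and 31.2% of the collagen sum. Without the 2 libraries farthest from the median collagen sum r was 0.993, and within the 1 week set it was 0.995 (n = 6, exact permutation p = 0.00278, adjusted 0.00926).

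The other structural and matricellular genes followed the collagens a little less tightly. Pearson's r over the 10 libraries was 0.970 for Tnc, 0.962 for Fn1, 0.961 for Fbn1, 0.927 for Postn, 0.914 for Bgn and 0.890 for Lox, with adjusted permutation p from 0.0001 to 0.00161. Of the 15289 genes tested, 5.27% had an r at or above that of Lox. Spearman's rho was 0.964, 0.964, 0.976, 0.855, 0.867 and 0.782 in the same order, with adjusted permutation p from 0.000225 to 0.0156. Without the same 2 libraries r was 0.950, 0.933, 0.929, 0.920, 0.878 and 0.859, and within the 1 week set all 6 were at 0.903 or above (n = 6, adjusted exact permutation p from 0.00926 to 0.0357). Thbs1 was looser, with r = 0.659 (permutation p = 0.0402, adjusted 0.0502) and rho = 0.624 (0.0603, adjusted 0.0754). Its r was 0.622 without the 2 libraries and 0.912 within the 1 week set (n = 6, exact permutation p = 0.0319, adjusted 0.0399). Lum gave r = 0.318 and rho = 0.442 (adjusted permutation p of 0.447 and 0.228, r = 0.443 without the 2 libraries and 0.711 within the 1 week set, n = 6, exact permutation p = 0.142, adjusted 0.157), and Dcn gave r = -0.02 and rho = -0.03 (adjusted permutation p of 0.948 and 0.946, r = 0.349 without the 2 libraries and -0.40 within the 1 week set, n = 6, exact permutation p = 0.447). Relative to the collagen sum, Lum spanned 12.4-fold and Dcn 8.56-fold, against 1.35-fold for Sparc. The 10 libraries come from 4 groups, so group differences enter these relations. The permutations exchanged libraries across groups, and stromal marker sums also differed between libraries. The p-values therefore do not measure a relation beyond the group and the stromal marker level of a library.

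**Figure D3:**
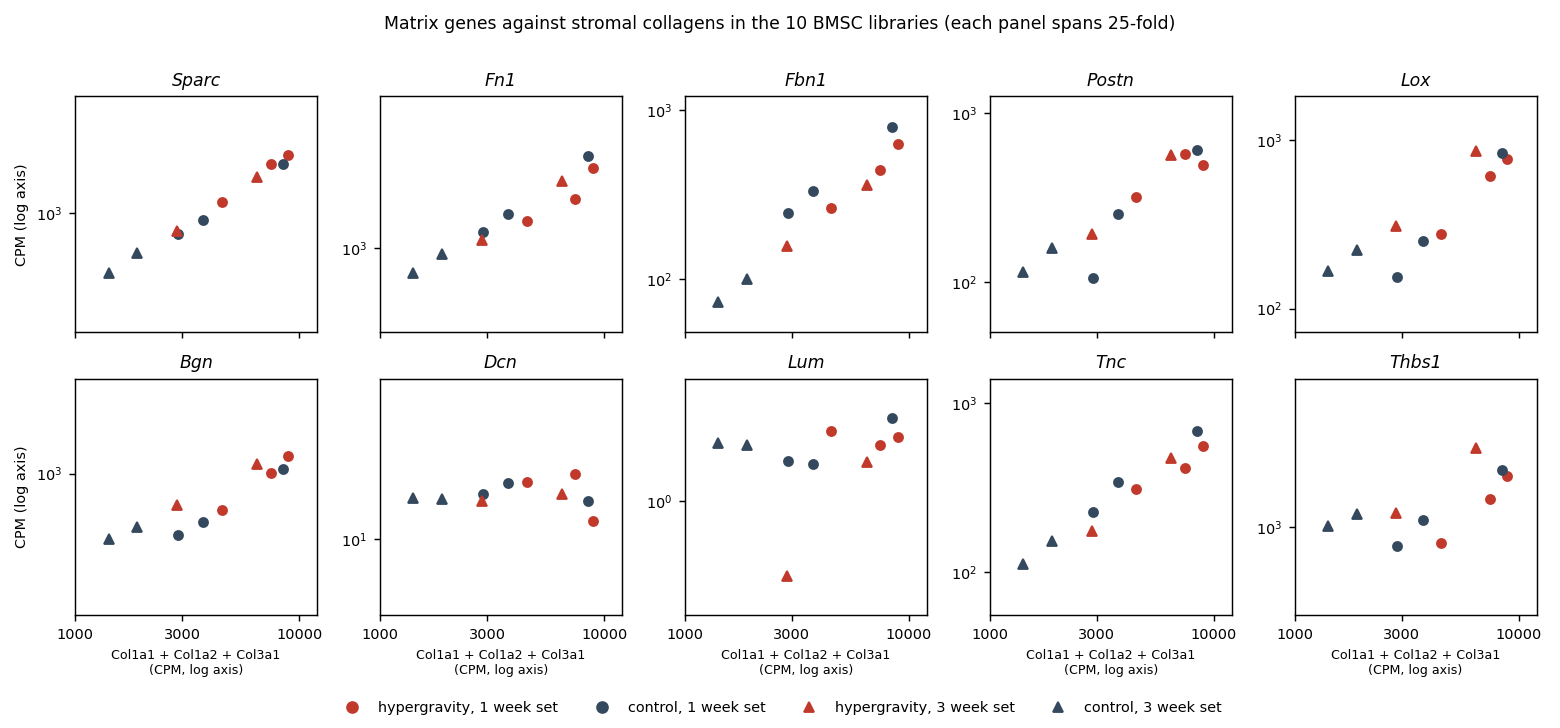
Level of each matrix gene against the summed CPM of Col1a1, Col1a2 and Col3a1 in the 10 BMSC libraries (both axes logarithmic, each panel spanning 25-fold vertically), with colour for hypergravity or control and shape for the set. Sparc lies along a line (r = 0.996), Dcn is flat (r = -0.02) and 1 hypergravity library of the 3 week set is low for Lum.

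Measured against the collagens of the same library, 4 genes had lower ratios under hypergravity at 1 week. Their own log2 changes were -0.01 for Fn1, -0.05 for Fbn1, 0.02 for Tnc and 0.06 for Thbs1. Those of the collagens were 0.52 ± 0.38 for Col1a1, 0.445 ± 0.38 for Col1a2 and 0.37 ± 0.42 for Col3a1, with none called. The ratios were thus lower without a fall of the 4 genes themselves. The log2 ratio to the collagen sum was -1.72 ± 0.19 (SD, n = 3) in hypergravity libraries and -1.23 ± 0.03 (n = 3) in controls for Fn1, and -3.99 ± 0.16 against -3.48 ± 0.08 for Fbn1. It was -4.01 ± 0.16 against -3.57 ± 0.11 for Tnc and -2.33 ± 0.18 against -1.87 ± 0.09 for Thbs1. In each of these 4 genes all 3 hypergravity libraries lay below all 3 controls, which 7.68% of the 15289 genes tested also did. With 3 against 3 libraries an exact permutation test cannot go below 0.10. Sparc, Bgn, Lox and Postn overlapped between the groups. At 3 weeks 7 of the 10 ratios lay below without overlap, as did 88.5% of all genes tested, and Fbn1 lay above by 0.09.

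For some of the genes that followed the collagens in BMSC, promoter windows are given in RefSeq. The RefSeq table (GRCm38.p6) held windows from 250 bases before to 50 bases after the start site for 5 of the 10, namely Bgn, Fbn1, Postn, Sparc and Tnc, in 7 windows. Both strands were searched for the TATA box (TATAAA), the AP-1 site (TGANTCA), the TEAD site (GGAATG), the NF-kB site and the CArG box, which are found in 13.6%, 7.81%, 14.7%, 8.46% and 1.63% of all 32817 promoter windows of that length. No other motif of the 5 overlapped a match. Shown are 3 windows that differ in this search although their genes followed the same collagens, Postn (chr3:54360857-54361156, plus strand), Tnc (chr4:64046887-64047186, minus strand) and Sparc (chr11:55420031-55420330, minus strand), with TATAAA in capitals.
Postn: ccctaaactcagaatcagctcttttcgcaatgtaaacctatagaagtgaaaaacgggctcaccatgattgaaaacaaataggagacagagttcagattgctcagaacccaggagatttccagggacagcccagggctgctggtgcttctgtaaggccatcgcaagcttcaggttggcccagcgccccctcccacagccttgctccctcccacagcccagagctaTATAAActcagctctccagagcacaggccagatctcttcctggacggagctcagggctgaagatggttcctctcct
Tnc: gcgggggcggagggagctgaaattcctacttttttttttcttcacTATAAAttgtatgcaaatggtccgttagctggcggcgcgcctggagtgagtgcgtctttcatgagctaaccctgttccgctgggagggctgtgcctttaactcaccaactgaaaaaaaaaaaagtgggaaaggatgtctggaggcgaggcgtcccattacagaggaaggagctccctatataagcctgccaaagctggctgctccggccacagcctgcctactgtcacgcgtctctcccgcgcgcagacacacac
Sparc: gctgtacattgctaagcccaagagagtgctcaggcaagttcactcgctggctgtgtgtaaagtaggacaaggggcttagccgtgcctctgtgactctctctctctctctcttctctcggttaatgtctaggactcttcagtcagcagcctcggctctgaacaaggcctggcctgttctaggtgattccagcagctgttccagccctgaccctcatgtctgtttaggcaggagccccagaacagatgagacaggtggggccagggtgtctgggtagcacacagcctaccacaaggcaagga
The TATAAA of Postn starts at position -26 from the start site, and that of Tnc at -205. Between its TATAAA and the start site, the Tnc window shown also holds tatataa, which a search for TATAAA does not match. A second window of Tnc, for another start site, holds the same TATAAA at -126, and a second window of Postn holds none. None of the 5 motifs was found in this Sparc window or in those of Bgn and Fbn1, which says only that these letters are not there.

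The 9 matrix genes other than Lum, which was below the minimum level, were compared in pattern with all other genes over the 10 BMSC libraries, by Pearson's r of log2(CPM + 1) among 10511 genes with 5 CPM or more on average. Sparc was most like Fkbp10 (0.998), a collagen-folding enzyme gene of the endoplasmic reticulum, Slc7a5 (0.997) and Col1a2 (0.997). Lox was most like Ccdc80 (0.997) and Phldb2 (0.993). Bgn was most like Smo (0.994), Qsox1 (0.993) and the growth factor gene Tgfb3 (0.993). Tnc was most like Tln2 (0.994), Col27a1 (0.990) and Col5a1 (0.987), and Fbn1 was most like Heg1 (0.989), the laminin gene Lama4 (0.988) and Pxdn (0.986). Fn1 was most like Aldh1l2, Zfp507 and Ptprd (0.992 to 0.993), Postn like Khdrbs3, Edil3 and Sdc2 (0.972 to 0.984) and Thbs1 like Myom1, Rbms2 and Kremen1 (0.968 to 0.972). Dcn stood apart, with Vcp-rs (0.914) and Fam105a (0.855) among its nearest. Among the 8 genes other than Dcn and Lum, r lay between 0.568 and 0.986 over the 28 pairs, and between -0.35 and 0.06 for Dcn with those 8. All points share the libraries and their depth, and these values are descriptions.

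In BMDM at 1 week the matrix genes split, with lysyl oxidase and thrombospondin-1 up and Sparc, fibronectin and biglycan down. Lox had 164.5 and 168.5 CPM in hypergravity libraries, against 4.01, 8.12 and 7.96 CPM in controls. The groups were far apart, with a log2 change of 4.93 ± 0.28, or 30.5-fold (edgeR adjusted p = 2.76e-07). Thbs1 had 188 and 235 CPM under hypergravity and 51.9, 62.6 and 120 CPM in controls (1.71 ± 0.36, adjusted p = 0.00213). Again both hypergravity libraries lay above all 3 controls. With these levels Lox in hypergravity BMDM came within the range of Lox in BMSC, where single libraries ran from 153 to 858 CPM. The annotation places transcripts of the opposite strand over Lox, Fn1, Fbn1, Tnc and Thbs1. Where they overlap, their reads cannot be told apart from those of the gene itself, because the strand setting of the counting is not given. The transcripts over Fn1 and Tnc also have lines of counts of their own.

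The genes that fell in BMDM at 1 week were at low levels. Sparc had 4.66 and 3.36 CPM, or 93 and 111 counts, in hypergravity libraries, against 8.14, 13.8 and 15.5 CPM, or 254, 254 and 307 counts, in controls (-1.38 ± 0.37, edgeR adjusted p = 0.00908). Bgn had 4.16 and 3.97 CPM under hypergravity and 8.40, 16.4 and 16.6 CPM in controls (-1.49 ± 0.34, adjusted p = 0.00337). Fn1 had 12.1 and 18.7 CPM under hypergravity and 33.3, 31.3 and 48.1 CPM in controls (-1.01 ± 0.23, adjusted p = 0.00339). The groups did not overlap for any of the 3, nor did they for 47.4% of all genes tested that lay below and 25.7% that lay above. The Sparc call was lost without hypergravity replicate 2 (-1.14, adjusted p = 0.0854). Of the 9 genes tested, 2 were called higher and 3 lower, against 61.4% of 13842 genes called, 30.5% higher and 30.8% lower, so the share called among the matrix genes is close to the background. Scaling by library size alone moved the median of all genes from -0.03 to -0.29, and the 5 calls and their directions held under it.

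The other genes in BMDM at 1 week were not called. Postn had 1.35 and 0.788 CPM under hypergravity and 2.31, 1.64 and 2.47 CPM in controls (-0.78 ± 0.36, edgeR adjusted p = 0.0861; -1.04 and 0.0277 under scaling by library size alone). Dcn had 3.75 and 3.09 CPM under hypergravity and 2.40, 10.7 and 13.2 CPM in controls (-1.07 ± 0.66), and it was called at -1.54 without control replicate 1 (adjusted p = 0.0148). Fbn1 (0.65 ± 0.67) and Tnc (0.16 ± 0.33) overlapped between the groups. Both were called higher without control replicate 3, Fbn1 at 1.79 (adjusted p = 0.00356) and Tnc at 0.58 (0.0449), the library highest for both genes at 5.24 and 9.47 CPM. Lum did not pass the filter on low counts in BMDM, with 21 and 11 counts under hypergravity and 5, 3 and 1 in controls. The summed level of 7 smooth muscle and pericyte markers was 4.51 to 5.56 CPM in hypergravity and 12.02 to 13.8 CPM in control libraries, that of the 3 collagens was 17.1 to 18.5 against 18.3 to 41.8 CPM, and that of the 10 stromal markers was 44.1 to 44.8 against 39.2 to 79.3 CPM. No stromal marker was at 0 throughout the hypergravity group, Lepr was at 0 in all 3 controls, and Notch3 of the muscle list was at 0 in both hypergravity libraries. Single stromal markers went in opposite directions, with Pdgfrb at 2.86 ± 0.38 (edgeR adjusted p = 0.000107). Prrx1 was at -3.49 ± 0.58 (0.000472) and Cxcl12 at -2.25 ± 0.51 (0.00326), and the other stromal markers tested were not called. Endothelial markers summed to 37.2 to 41.7 CPM under hypergravity against 9.10 to 16.8 CPM in controls (Tek at 0 under hypergravity), adipocyte markers to 8.41 to 10.2 against 97.2 to 109 CPM (Cidec at 0 under hypergravity, Lep at 0 in both groups), neutrophil markers to 184 to 218 against 258.5 to 553 CPM (Retnlg at 0 under hypergravity), osteoblast markers to 8.51 to 10.5 against 12.9 to 15.5 CPM and macrophage markers to 29310 to 29410 against 33010 to 37770 CPM. Megakaryocyte and platelet markers summed to 44.7 to 45.2 CPM under hypergravity against 25.5 to 39.9 CPM in controls. B cell (1.82 to 2.30 against 5.13 to 6.30 CPM) and erythroid markers (0.242 to 0.4505 against 0.654 to 1.058 CPM) were lower. So were T and NK cell markers (0 to 0.242 against 0.857 to 1.795 CPM). Of the adipocyte and osteoblast lists, only Pparg and Runx2 passed the count filter in BMDM. Of the osteoblast list, Bglap2, Ibsp and Dmp1 were at 0 in both groups, and Bglap and Sp7 under hypergravity. The part of these cells in the changes was not tested.

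**Figure D4:**
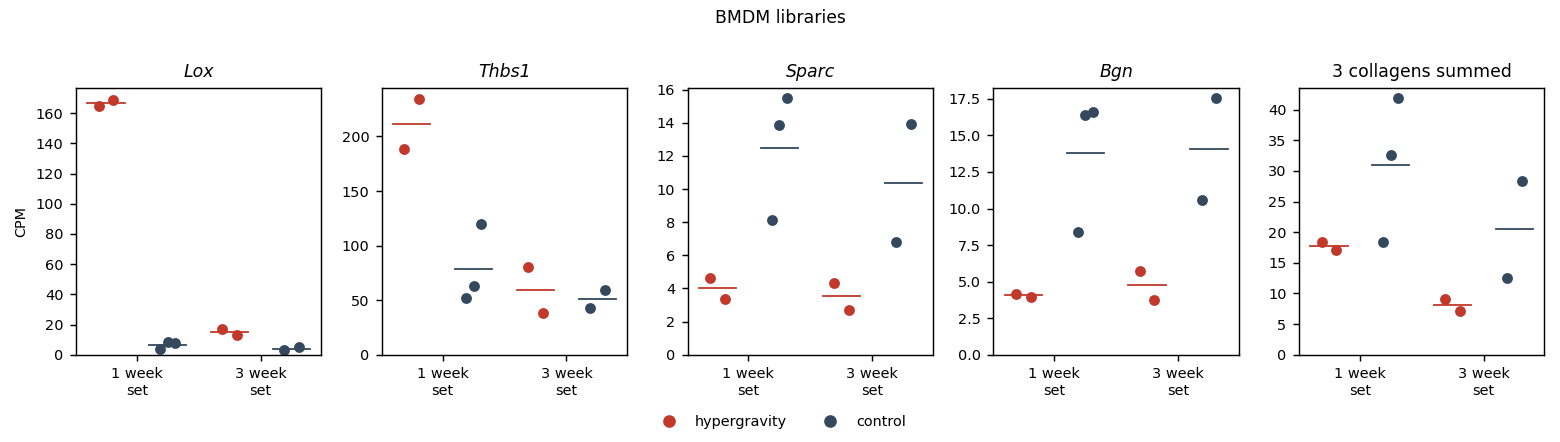
Levels of Lox, Thbs1, Sparc, Bgn and the 3 summed collagens in CPM (linear axes from 0) in each BMDM library, hypergravity in red left of control in dark blue, with bars at the group means. Lox stood at 164.5 and 168.5 CPM under 1 week of hypergravity and at 16.9 and 13.1 CPM under 3 weeks, against 2.85 to 8.12 CPM in the controls of both sets.

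At 3 weeks in BMDM, Lox again lay above its controls and Sparc, Bgn and Fn1 below theirs, but none of the matrix genes was called. Lox had 16.9 and 13.1 CPM in hypergravity libraries, against 2.85 and 5.31 CPM in controls (1.92 ± 0.34, edgeR adjusted p = 0.0515; DESeq2 adjusted p = 2.54e-07). Both hypergravity libraries were above both controls, as for 12.8% of genes tested. Sparc had 4.36 and 2.67 CPM under hypergravity and 6.78 and 13.9 CPM in controls (-1.50 ± 0.41, edgeR adjusted p = 0.480). Bgn had 5.72 and 3.78 CPM under hypergravity and 10.6 and 17.6 CPM in controls (-1.51 ± 0.36, adjusted p = 0.266). Tnc had 3.66 and 2.91 CPM under hypergravity and 7.81 and 7.64 CPM in controls (-1.19 ± 0.39, adjusted p = 0.703). Fn1 had 50.6 and 38.3 CPM under hypergravity and 61.5 and 72.1 CPM in controls (-0.55 ± 0.24). These 4 genes lay below without overlap, as did 24.9% of genes tested. All 4 also lay above without overlap in BMSC at 3 weeks, a joint pattern seen in 8.58% of the 13437 genes tested in both cell types. edgeR called none of the 9 genes tested, against 0.426% of 13842 genes. At an unadjusted p below 0.05 there were 5 of the 9, against 592 of the 13842 genes. DESeq2 called 3 of the matrix genes and 96 genes in all. Smooth muscle and pericyte markers summed to 4.01 to 6.43 CPM in hypergravity and 8.60 to 17.2 CPM in control libraries. Stromal markers summed to 27.95 to 31.3 against 35.2 to 54.9 CPM. The 3 collagens summed to 7.09 to 9.03 against 12.6 to 28.4 CPM. Endothelial (4.67 to 5.81 against 6.25 to 6.53 CPM) and osteoblast markers (13.1 to 13.3 against 14.2 to 15.1 CPM) were also lower. So were adipocyte markers (79.9 to 88.7 against 88.9 to 93.0 CPM). Of the osteoblast and adipocyte lists, only Runx2 and Pparg passed the count filter in BMDM. Macrophage markers were higher (31760 to 32920 against 28630 to 29220 CPM). T and NK cell markers summed to 1.32 to 1.92 CPM under hypergravity against 1.24 to 1.28 CPM in controls. Of these, Cd3e, Cd3d and Ncr1 were at 0 in both groups and Cd3g was at 0 in controls. The part of these cells in the result was not tested.

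The response of Lox in BMDM was smaller at 3 weeks than at 1 week. The difference of the 2 responses, 3 weeks minus 1 week, was -3.01 ± 0.44 (edgeR adjusted p = 0.000416), 1 call among the 9 genes tested against 43.4% of all genes. It kept its call without any one of the 9 BMDM libraries. Thbs1 at -1.45 ± 0.54 (adjusted p = 0.0543) and Tnc at -1.35 ± 0.51 (0.0546) lay just outside the threshold, and both were called without control replicate 3 of the 1 week set, at -1.86 (0.000407) and -1.76 (0.000618). Sparc (-0.12 ± 0.55) and Bgn (-0.03 ± 0.49) had like changes in both sets within their errors. Between the BMDM controls of the 3 week and 1 week sets no matrix gene was called by edgeR, against 3.97% of genes. At an unadjusted p below 0.05 there was 1, against 2654 of 13842 genes. DESeq2 called 1 matrix gene and 850 genes in all. Fn1 had the smallest p at 0.79 ± 0.21 (edgeR adjusted p = 0.0777).

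Between the cell types, the 1 week response was called different for 4 of the 9 matrix genes that passed the count filter in both. The response in BMDM minus that in BMSC was 4.52 ± 0.76 for Lox (edgeR adjusted p = 0.000108), -1.995 ± 0.53 for Bgn (0.00486) and -1.92 ± 0.58 for Sparc (0.0110). It was 1.65 ± 0.60 for Thbs1 (0.0319). Of 15550 genes 49.6% were called in this comparison, so the share called among the matrix genes is close to the background. The Sparc call was lost without hypergravity BMDM replicate 2 (-1.71, 0.0736). The Thbs1 call was lost without 7 of the 11 libraries of the 1 week sets taken one at a time, with adjusted p from 0.0514 to 0.114, and under scaling by library size alone (1.36, 0.0944).

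In pattern over the 9 BMDM libraries, Lox and Sparc had different neighbours among 9616 genes. Lox was most like the prostaglandin synthase gene Ptgs2 (r = 0.992), the phosphodiesterase gene Pde4b (0.990) and Spata13 (0.989). Sparc was most like Cald1 (0.977), the smooth muscle actin gene Acta2 (0.948) and Pank4 (0.919). Bgn was most like Cald1 (0.969), Acta2 (0.951) and Btd (0.947). Of these neighbours, Cald1 and Acta2 are of the contractile apparatus. Fn1 was most like Ube3b, Scrib and Pip5k1c (0.982 to 0.984), Thbs1 like Nr1d1, Ccnl1 and Ncf1 (0.963 to 0.974), and Tnc like Sgsm3, Ptk2 and Galnt10 (0.902 to 0.912). These are descriptions over libraries that differ strongly by group.

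Other matrix genes gave a setting for the 10, with counts to be read against the 61.4% of all genes called in BMDM at 1 week, 30.5% higher and 30.8% lower. In BMDM at 1 week, 6 of 13 tested genes of collagen cross-linking and processing rose and 4 fell, with the collagen prolyl hydroxylase genes P4ha2 (4.72 ± 0.16, edgeR adjusted p = 8.94e-09) and P4ha1 (2.54 ± 0.11) and the transglutaminase gene Tgm2 (3.83 ± 0.19) higher. Of 16 receptors for these proteins 8 rose and 5 fell, with the fibronectin receptor chain Itga5 at 2.01 ± 0.08, the syndecan Sdc4 at 2.08 ± 0.09 and the integrin chain Itgb5 at -2.81 ± 0.14. Of 9 tested other proteoglycans and hyaluronan genes 6 rose and 2 fell, with versican (Vcan) at 3.54 ± 0.33 and Sdc1 at 1.46 ± 0.15. Of 8 tested microfibril and elastic fibre genes 2 rose and 4 fell (Emilin2 1.35 ± 0.10, Ltbp3 -1.47 ± 0.17, Fbln5 -2.84 ± 0.45). Of 9 other matricellular genes 1 rose and 3 fell (Tgfbi 0.71 ± 0.10, Cyr61 -1.92 ± 0.42, Wisp2 -4.11 ± 1.14), and of 9 basement membrane genes 3 rose and 4 fell (Lamc1 1.78 ± 0.18, Col4a2 2.49 ± 0.32). The median of the cross-linking list was 0.40 and that of the microfibril list -0.90, beside -0.03 over all genes tested. No other small leucine-rich proteoglycan of 13 listed passed the count filter in BMDM.

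In BMSC these lists gave few calls. At 1 week edgeR called 2 of 16 receptor genes lower, Itga4 (-0.72) and Lrp1 (-0.73), against 2.47% of all genes called lower. No gene at all was called there with only the groups compared, without hypergravity replicate 2 or without control replicate 1. None of the other matrix lists had a call, and their medians were 0.58 for 9 small leucine-rich proteoglycans, 0.42 for 15 microfibril genes, 0.35 for 14 cross-linking genes, 0.32 for 15 matricellular genes, 0.06 for 12 basement membrane genes and 0.01 for 10 other proteoglycans and hyaluronan genes, beside 0.005 over all genes. At 3 weeks no list gene was called, and medians were 1.64, 0.90, 0.80, 0.91, 0.96 and 0.10 in the same order, beside 0.002 over all genes. All 9 other small leucine-rich proteoglycans had positive values at 3 weeks, among them Podn (2.51 ± 0.94), Aspn (3.05 ± 1.20) and Ogn (2.19 ± 0.92, adjusted p = 0.899 each), beside -0.04 for Dcn and -1.13 for Lum. In control cells, BMSC minus BMDM, 5 of 16 receptors were called higher and 3 lower, against 27.7% of all genes higher and 49.8% called in either direction.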

How the data were processed

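The authors deposited a table of raw counts for each gene symbol in every library. The submitters' processing notes name HISAT2 2.0.4 and the mm10 assembly. How reads were assigned to genes, and whether strand was used, is not given in the sources used here. CPM were computed per raw library total. Lengths and positions came from GENCODE M21 (GRCm38), which matched all 10 symbols. Counts were tested with the quasi-likelihood test of edgeR 4.0.16 (R 4.3.3), using TMM scaling, filterByExpr and 1 coefficient per group. BMDM (13842 genes, 5 residual degrees of freedom) and BMSC (15289 genes, 6) were fitted separately, and differences between cell types came from all 19 libraries (15550 genes, 11). Genes with a Benjamini-Hochberg adjusted p below 0.05, over all genes tested, were called. The code recovered known changes when tested on simulated data. Replicates differed by 4.3 to 97.9 times the counting variance, so none was counted as a repeat. Limits from counts cover counting error only.

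The 10 genes and all lists were chosen with earlier results of these data known. All 10 genes were named in each comparison where they were tested. Of each other matrix list up to 3 genes with the smallest p were named, and of each pattern comparison up to 3 genes with the highest correlation. A gene withheld for evaluation is not reported here. Alternatives were DESeq2 1.42.0, its size factors in edgeR, library size alone, no count filter, a filter of 1 CPM in 2 libraries, a block on the replicate number, a fit of only the groups compared, and omission of each library.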

Additional observations from a re-analysis of the deposited data

Results flagged for a closer look

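Between the sets, the response of Lox in BMDM differed in the test of the difference itself, at -3.01 on the log2 scale (3 weeks minus 1 week). Between the cell types at 1 week (BMDM minus BMSC), the tested differences of response were 4.515 for Lox, -1.92 for Sparc, -1.995 for Bgn and 1.65 for Thbs1. At 3 weeks, 4 genes lay lower in both hypergravity BMDM libraries than in both controls and higher in both hypergravity BMSC libraries than in both controls, as did 8.58% of the 13437 genes tested in both cell types. The fitted differences of response, BMDM minus BMSC, were -2.67 for Sparc, -1.62 for Fn1, -2.45 for Bgn and -2.40 for Tnc, and these 4 differences were not tested.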

How the results depend on the processing

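No called change of a matrix gene turned its sign under any alternative run, and 70 of 1320 repeated values changed sign, all among changes that were not called. In all 84 of them gained and 15 lost a call, most of the gains without a count filter. Of the ratios to collagens 1 moved by more than the replicate spread. For the nearest genes in pattern, Spearman's rho was 0.817 to 1.0. Most of them were not among the 3 nearest by rho, such as Fkbp10 for Sparc in BMSC and Ptgs2 for Lox in BMDM. Cald1 and Acta2 stayed among the 3 nearest for Sparc in BMDM. Filters of 1 CPM left every count within 1.5 times, as did library size alone. Where counts moved, the cause was not tested.

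With DESeq2 the calls were 96 genes, 3 of the matrix set, in BMDM at 3 weeks, 923 in BMSC at 1 week, 4 in BMSC at 3 weeks, 84 for the BMSC set difference, 850 (1) and 1936 (2) between BMDM and BMSC control sets, and 2 matrix genes for the BMDM set difference. With its size factors in edgeR they were 1 matrix gene in BMDM at 3 weeks and 3 for the BMDM set difference. Without a count filter they were 205 (6) in BMDM at 3 weeks, 1313 (4) and 592 (8) in BMSC at 1 and 3 weeks, 391 (5) for the BMSC set difference, 1476 (4) and 2720 (7) between the control sets, and 8, 5 and 9 matrix genes in BMDM at 1 week, the BMDM set difference and the cell type difference. With only the groups compared they were 139 (4) in BMDM at 3 weeks, 0 in BMSC at 1 week, and 148 and 435 between the control sets; this was not run for the set differences, whose groups are those already fitted.

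Same-numbered replicates correlated at -0.10 to 0.544 over 9 pairs and were not taken as paired. With the replicate number as a block the calls were 183 (4 of the matrix set) in BMDM at 3 weeks, 657 in BMSC at 1 week, 3004 (2) and 345 between the control sets, and 4 matrix genes for the BMDM set difference.

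Omitting 1 library at a time gave 6828 to 9518 genes in BMDM at 1 week (5 to 7 of the matrix set), 35 to 50 at 3 weeks, 39 to 3222 (0 to 2) between BMDM control sets, 4594 to 7705 (1 to 4) for the BMDM set difference, 0 to 1109 in BMSC at 1 week, 103 to 2424 (0 to 3) between BMSC control sets, and 3 to 6 matrix genes for the cell type difference, for which these counts include Lum (5 calls with it). In groups of 2, the remaining library was assumed to vary like the other groups. Groups of 2 or 3 limit most comparisons, and in BMDM counts of 10 to 354 for Sparc, Bgn, Dcn, Postn and Fbn1 limit them further.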
